A study of Mus musculus with 2 samples.

Results

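The loci described here are those of 6 transcription factor genes that direct the formation of pancreatic endocrine cells, Neurog3, Neurod1, Insm1, Nkx2-2, Pax6 and Isl1. Each was taken as a fixed window of the mm9 genome: chromosome 10 from 61500000 to 61700000 for Neurog3, chromosome 2 from 79200000 to 79400000 for Neurod1, 145950000 to 146150000 for Insm1, 146900000 to 147100000 for Nkx2-2 and 105400000 to 105650000 for Pax6, and chromosome 13 from 116950000 to 117250000 for Isl1. Members were the Ptf1a sites of the authors' list whose position lay in a window, and the reads of both libraries in bins of 1 kb. The windows held 33 of the 30691 listed sites, in 1350 kb. The windows were set by coordinates and not by a cut on a measured value, but with earlier results of these data known.

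Ptf1a binding was measured by chromatin immunoprecipitation and sequencing (ChIP-seq) in 266.6 cells, a mouse line grown from a pancreatic acinar tumour, of the strain cross C57BL/6 X SJL, at passage 26. The study took the line as a stand-in for the early pancreatic bud and meant to set bound sites beside genes that depend on Ptf1a there. One library came from chromatin bound by an antibody to Ptf1a (Beta Cell Biology Consortium), with DNA of 2 immunoprecipitations pooled, and the other from input chromatin with no antibody; cells of both were fixed with 1% formaldehyde for 10 min. There were 28502488 ChIP reads and 27959618 input reads, repeated reads made up 10.2% and 3.29% of them, neither library had a replicate, and RNA was not measured, so the cell type could not be checked against marker genes.

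Ptf1a is a basic helix-loop-helix (bHLH) factor that pairs with an E protein and with RBPJ or its acinar relative RBPJL to form the PTF1 complex. It is needed early for the pancreatic bud and later for acinar cells, which make digestive enzymes. Endocrine cells, the makers of insulin, glucagon and other hormones, arise from the same epithelium when cells switch on Neurog3. Neurog3 then activates Neurod1, Insm1, Nkx2-2 and other regulators, and Pax6 and Isl1 act in the hormone-producing cells that follow.

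All 6 windows held listed Ptf1a sites, but in unequal numbers. The Insm1 window held 12 and the Neurog3 window 9, the Nkx2-2 window 5, the Isl1 window 3, and the Neurod1 and Pax6 windows 2 each. Each window except that of Neurod1 held exactly 1 site with an authors' height of 100 or more. Height is the value the authors gave each site, a whole number from 20 to 396 over the list, and the Neurod1 window reached only 46. Over the 33 sites the median height was 42 against 36 in the whole list, and 15.2% had a height of 100 or more against 13.3%. The share with the lowest heights, 20 to 29, was also larger, 42.4% against 37.8%. Counting only heights of 50 or more, the order changed, with 4 sites for Neurog3, 3 for Insm1, 2 each for Nkx2-2 and Isl1, 1 for Pax6 and none for Neurod1.

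**Figure D1:**
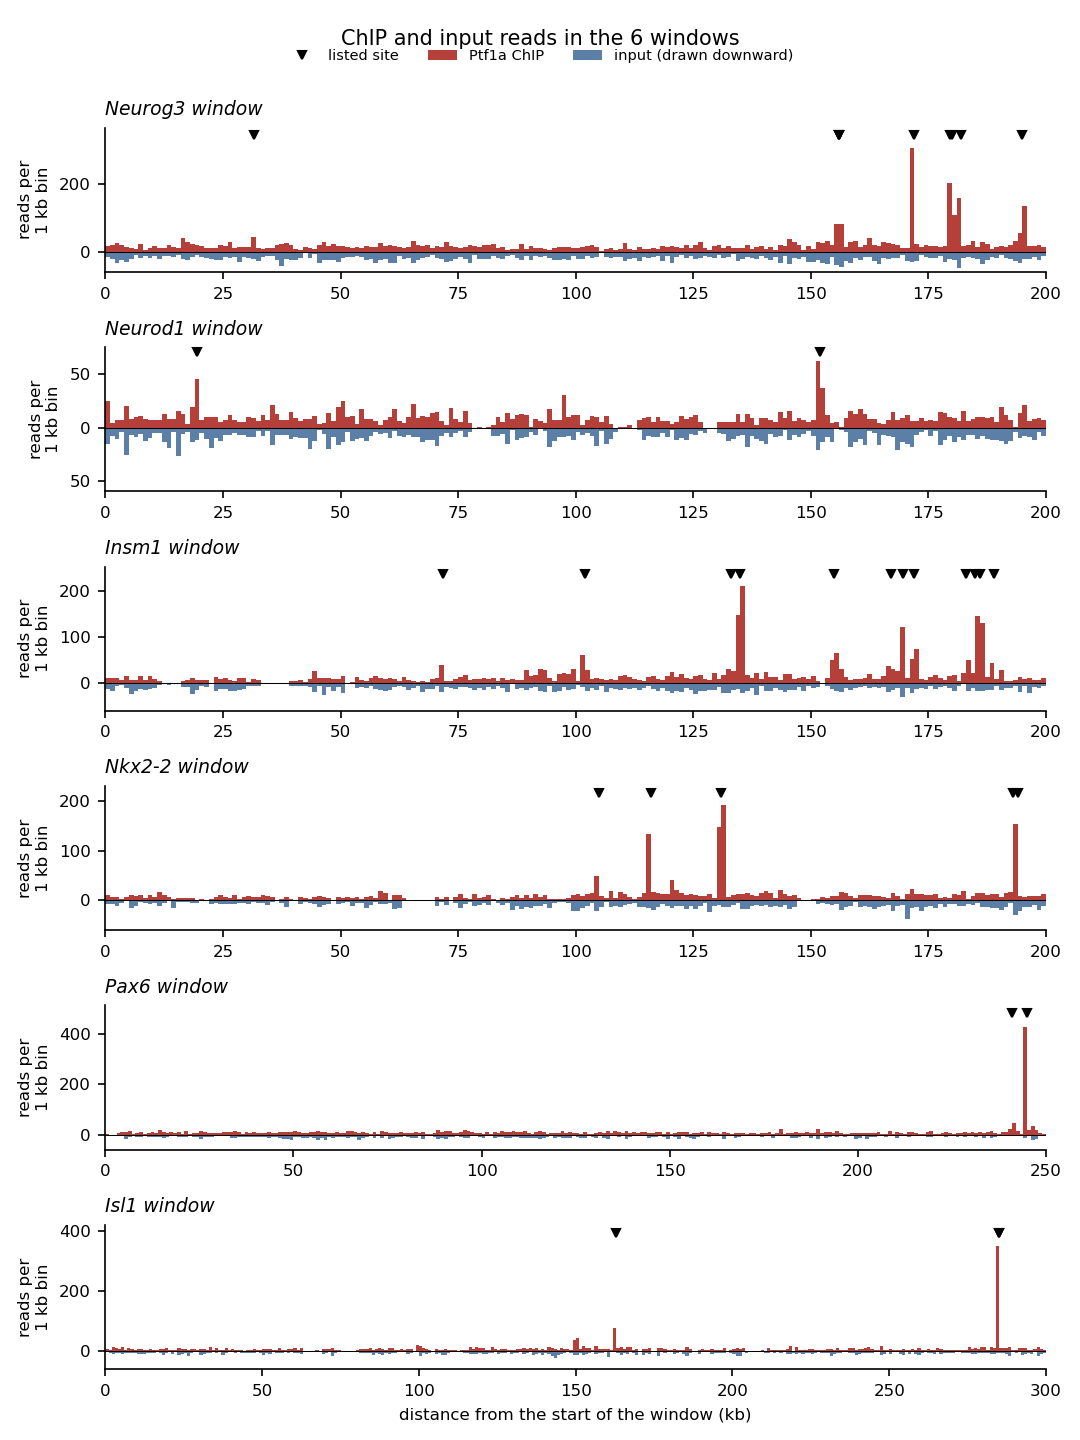
Reads per 1 kb bin along each window, with ChIP reads drawn upward and input reads downward, against distance from the start of the window in kb; the vertical scale differs between panels and triangles mark listed sites. The highest bin held 428 ChIP reads in the Pax6 window and 63 in the Neurod1 window, while no input bin held more than 48.

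Sites were not spread evenly along the windows. Of the 33 sites, 30 lay beyond the midpoint of their window, on the side of higher coordinates, and 3 before it. Of these 30, 11 lay in the Insm1 window and 8 in the Neurog3 window. Midpoints follow from the window limits, and same-size windows were not split at theirs. Within the window limits, the longest stretch with no listed site was 124 kb for Neurog3, 132 kb for Neurod1, 71.7 kb for Insm1, 105 kb for Nkx2-2, 241 kb for Pax6 and 163 kb for Isl1. The stretches of Insm1, Nkx2-2, Pax6 and Isl1 were cut by the window start. The nearest listed site before that start lay a further 62.4, 139, 469.8 and 694 kb away, in that order. For Neurog3 it lay 254 kb before the window, so a longer stretch crossed that limit. Bins with no read in either library, where reads may not be placeable, made up 27 of the 1350 bins. They were not counted within those stretches, nor were bins with only a few reads, and their part in the stretches was not tested. Of the 33 sites, 25 (75.8%) had another listed site within 12.5 kb, as did 60.5% of the whole list. The files carry no gene annotation and no mm9 annotation was used here, so the place of a site relative to a promoter, exon or intron is not given. In the gene order of GRCm38.p6 (RefSeq), which serves here for names only, Neurog3 lies between Fam241b and Tspan15, Neurod1 between Cerkl and Itprid2, Insm1 between Cfap61 and Ralgapa2, Nkx2-2 between Nkx2-4 and Pax1, Pax6 between Rcn1 and Elp4, and Isl1 between Pelo and Parp8. A site in a window is therefore not shown to belong to the gene the window is named for.

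Tested one by one, 32 of the 33 sites had more ChIP than input reads in the span of 100 bp that the authors deposited, and none had fewer (exact two-sided binomial test, Benjamini-Hochberg adjusted over the whole list, threshold 0.05). The same test gave an excess of ChIP reads at 93.0% of the whole list and a deficit at 0.182%. The list was made from this ChIP library, so the calls are not independent evidence of binding, and the share in the windows lies near that of the list. Every test here compares 2 libraries, not conditions, and intervals cover counting error only. Ratios below are ChIP reads over input reads, scaled so that all reads more than 300 bp from every listed site together have a ratio of 1. This corresponds to 0.905 ChIP reads per input read. Within 100 bp of the listed position the 33 sites held 26 to 376 ChIP reads (median 65) and 0 to 16 input reads (median 5).

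**Figure D2:**
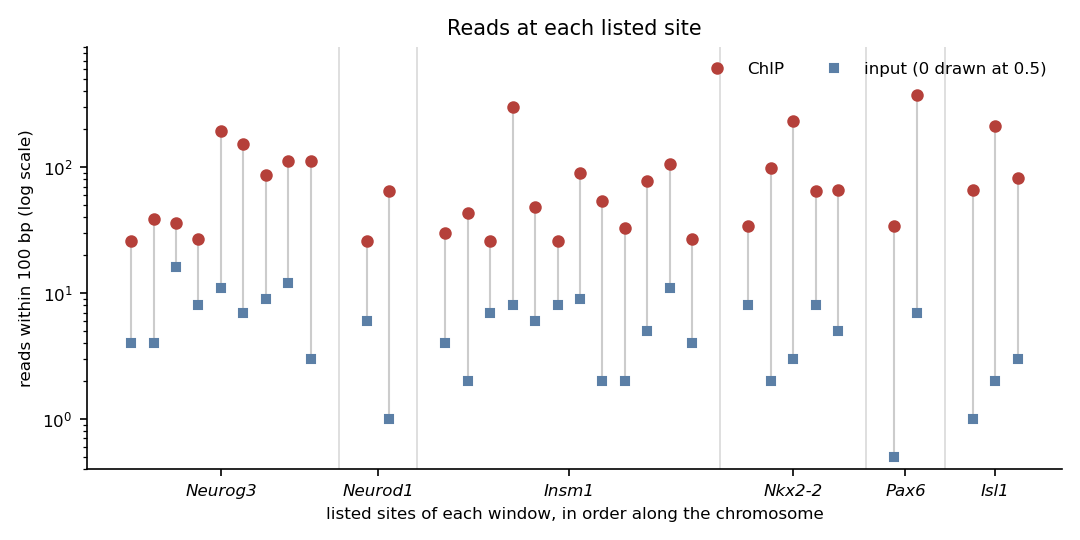
Reads within 100 bp of each of the 33 listed sites, on a log scale, with ChIP as circles and input as squares, grouped by window and ordered along the chromosome. ChIP counts lay above input counts at each site, with the greatest ChIP count, 376, in the Pax6 window and the greatest input count, 16, in the Neurog3 window.

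Neurog3 encodes the bHLH factor that starts endocrine differentiation. Its window held 9 listed sites, 8 of them in its last 50 kb. The highest, from 61671540 to 61671639 with a height of 118, had 94 ChIP and 7 input reads in its span, a ratio of 14.8 (exact 95% interval 6.93 to 37.9; adjusted p = 1.20e-21, exact binomial test). It opened a run of 4 sites over 10.2 kb. The other members were at 61679538 (height 39, with 83 ChIP and 3 input reads), 61680074 (height 68, with 45 and 2) and 61681708 (height 79, with 65 and 6, ratio 12.0, 5.21 to 33.8).

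A further site at 61695068 had a height of 80, with 54 ChIP reads and 1 input read (ratio 59.7, 10.3 to 2401). A group of 3 low sites stood together within 0.900 kb, at 61655513, 61656139 and 61656413, with heights of 23, 28 and 22. They included the only site of the 33 that did not pass in its span, at 61656413, with 13 ChIP and 7 input reads (ratio 2.05, 0.761 to 6.08; adjusted p = 0.184, exact binomial test). That site did pass when reads within 100 bp to each side were counted, 27 ChIP and 8 input reads. The last, at 61531565, stood 124 kb from the nearest other site with a height of 22, and had 8 ChIP reads and 1 input read.

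The Neurog3 window also stood apart in input depth. It held 19.9 input reads per kb, against a median of 11.4 in same-size windows of chromosome 10, and more than 94.9% of them. Its part in the number of listed sites was not tested. By number of sites, 93.5% of those windows held fewer, and by sites per 1000 input reads 90.3% did.

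Neurod1, a bHLH factor that acts downstream of Neurog3 and drives insulin gene expression, had no site of height over 46. The site at 79351985 had a height of 46, with 29 ChIP reads and 1 input read in its span (ratio 32.1, 5.32 to 1309; adjusted p = 3.59e-08, exact binomial test). The other, at 79219534, had the lowest height of the list, 20, with 14 ChIP reads and 1 input read (ratio 15.5, 2.35 to 654; adjusted p = 6.91e-04, exact binomial test). That call was lost when read starts were counted where they lay, at 7 ChIP and 2 input reads (adjusted p = 0.148, exact binomial test). Within 100 bp the site at 79219534 had 26 ChIP and 6 input reads, a lower ratio of 4.79 (1.93 to 14.2). The sites stood on either side of the midpoint of the window with 132 kb between them.

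Insm1 encodes a zinc finger factor of endocrine precursors. Its window held the most sites, 12, and the site from 146085007 to 146085106 was the highest, with a height of 165. This site had 173 ChIP and 4 input reads (ratio 47.8, 18.3 to 177; adjusted p = 1.51e-48, exact binomial test). Next came 146136206 (height 80, with 50 ChIP and 7 input reads, ratio 7.90, 3.56 to 20.6) and 146119551 (height 58, with 48 ChIP reads and 1 input read, ratio 53.1, 9.08 to 2139). The remaining 9 were low, with heights from 20 to 48. One of these, at 146122288 (height 42), had 32 ChIP reads and no input read. With the input put at a floor of 3 reads the ratio of this site was 11.8. Its exact interval, taken without the floor, began lower, at 9.05.

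The sites of the Insm1 window ran on past its end. From 146105438 to 146157876 lay a run of 12 sites over 52.3 kb, 8 in the window and 4 beyond it. The first site outside was 0.490 kb past the limit with a height of 53, and the highest of the run, at 146157777, had a height of 273. Widened by 50 kb on each side, the window held 21 sites. The count for Insm1 thus depends on where the window ends, while each of the other 5 windows gained 1 site or none.

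Nkx2-2, a homeodomain factor needed for insulin-producing beta cells, had 5 sites, none in the first 100 kb of its window. The site from 147031011 to 147031110 had a height of 150, with 111 ChIP reads and 1 input read (ratio 123, 21.6 to 4890; adjusted p = 1.90e-33, exact binomial test). The site at 147015604 had a height of 85, with 43 ChIP and 2 input reads (ratio 23.8, 6.19 to 203). A pair of sites 442 bp apart, at 147093107 and 147093549, had equal heights of 45 and equal ChIP counts of 36, against 4 and 3 input reads. The lowest, at 147004529 with a height of 28, had 22 ChIP and 5 input reads (ratio 4.86, 1.80 to 16.4).

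Pax6, a paired-domain factor of eye, brain and islet that binds hormone gene promoters, had the highest single site of the 6 windows. The site from 105644816 to 105644915 had a height of 191, rank 1055 of the whole list. It held 205 ChIP and 5 input reads (ratio 45.3, 19.1 to 141; adjusted p = 3.96e-57, exact binomial test). Within 100 bp it had 376 ChIP reads, of which 204 were distinct in position and strand, and 7 input reads. The second site lay 3375 bp before it, at 105641441, with a height of 25 and 20 ChIP reads against no input read. With the input put at the floor of 3 reads the ratio of this second site was 7.37. Its exact interval, taken without the floor, began lower, at 5.46. Both stood in the last 10 kb of the window, another site of height 30 followed 4.32 kb past its end, and 241 kb before them held no listed site.

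Isl1, a LIM-homeodomain factor needed for islet cells and motor neurons, had 3 sites. A pair 318 bp apart lay at 117234558 and 117234876. The first had a height of 130 and 124 ChIP reads against 1 input read (ratio 137, 24.2 to 5457; adjusted p = 1.56e-37, exact binomial test). The second had a height of 66 and 46 ChIP reads against 1 input read (ratio 50.8, 8.68 to 2052). The remaining site, at 117112963, had a height of 21 and 11 ChIP reads against 1 in its span, but 66 against 1 within 100 bp of the position. No listed site lay within 50 kb outside the window.

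**Figure D3:**
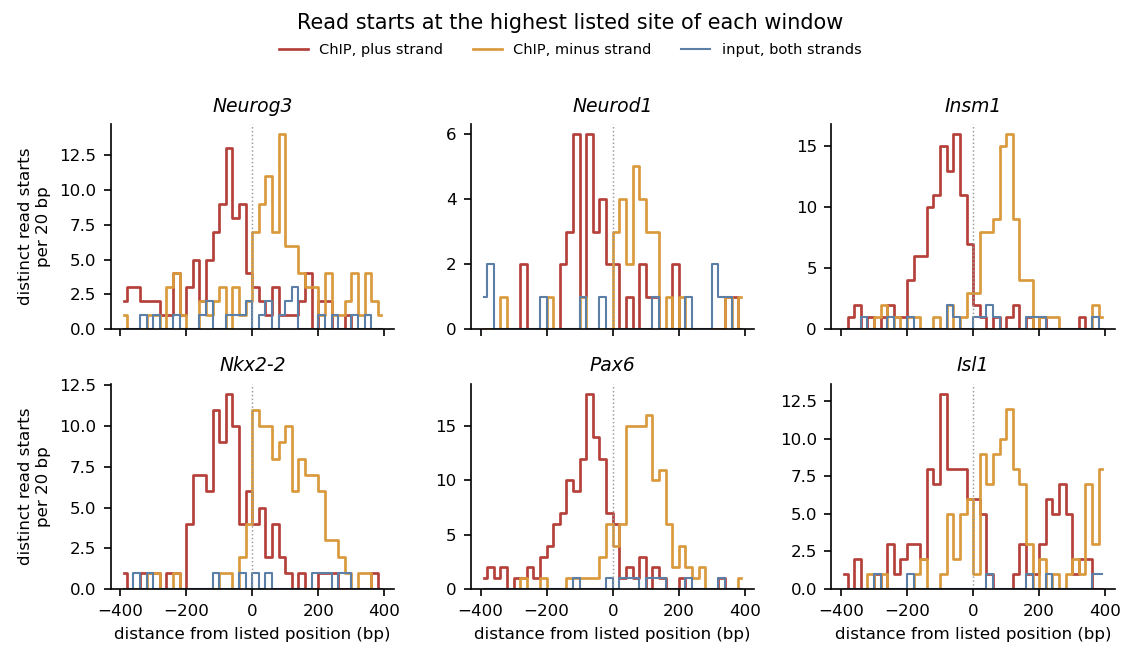
Read starts with distinct position and strand per 20 bp around the highest listed site of each window, for ChIP reads on the plus and minus strands and for input reads on both; the vertical scale differs between panels. Plus-strand starts piled up before the listed position and minus-strand starts after it in all 6, and a second pile at the right of the Isl1 panel belongs to the site 318 bp away.

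At the highest site of each window, reads of opposite strands lay mostly on opposite sides of the listed position. At the highest Pax6 site 121 distinct plus-strand starts and 122 distinct minus-strand starts lay within 250 bp, with medians 73 bp before and 87 bp after the listed position. At the highest Insm1 site these counts were 111 and 89, at Nkx2-2 they were 100 and 105, at Isl1 99 and 91, at Neurog3 92 and 97, and at Neurod1 36 and 28. Both strands were thus represented at each. Among the 25 sites with no listed neighbour within 600 bp, the distance between strand medians ran from 107 to 206 bp with a median of 144 bp. At the Isl1 site at 117234876, where reads of the site 318 bp before it fall in the same stretch, both medians lay before the position, by 65 bp for the plus strand and 156 bp for the minus strand.

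The bins of 1 kb were tested across the whole genome. They were laid without regard to the listed sites, but the scale of the test leaves out reads near those sites. In the 6 windows 40 of 1323 bins (3.02%) had significantly more ChIP than input reads, against 1.54% of the 2439473 bins of chromosomes 1 to 19 and X (exact two-sided binomial test, adjusted over all of these bins). No bin in the windows was called lower, against 0.0978% of the genome's bins. By window, 13 bins (6.74%) were higher for Insm1, 8 of 200 for Neurog3, 6 (3.14%) for Nkx2-2, 5 (1.70%) for Isl1, 4 (2.03%) for Neurod1 and 4 (1.61%) for Pax6. The shares for Pax6, Isl1 and Neurod1 thus lay near that of the genome. With the ratio of library totals as the scale, which does not use the list, there were 32 such bins in the 6 windows, 2 of them for Neurod1 and 3 for Isl1, and 1.31% in the genome. Input depth ran from 6.75 reads per kb in the Isl1 window to 19.9 in the Neurog3 window. Its part in the numbers of called bins was not tested.

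Most of the 40 bins belonged to listed sites. A listed site lay in 26 of them and within 1 kb of 7 more, which left 7 with no listed site near. Away from listed sites 0.564% of the windows' bins were called higher, and 0.394% in the genome. The highest ratio among these 7 was that of the Pax6 bin from 105579001 to 105580000, with 22 ChIP reads and 1 input read (ratio 24.3, 3.93 to 1004; adjusted p = 1.93e-04, exact binomial test), 18 of whose distinct reads fell within 200 bp. In the Isl1 window neighbouring bins from 117099001 to 117101000 held 38 and 45 ChIP reads against 14 and 13 input reads, and the second had a ratio of 3.83 (2.03 to 7.73).

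Another Isl1 bin, from 117049001 to 117050000, had 19 ChIP and 3 input reads. The others were 61662001 to 61663000 in the Neurog3 window (41 and 16 reads, ratio 2.83, 1.56 to 5.41), 79297001 to 79298000 in that of Neurod1 (31 and 9, ratio 3.81) and 147020001 to 147021000 in that of Nkx2-2 (41 and 15, ratio 3.02). With 1 read per position and strand 3 of the 7 were called, that of Pax6 and the neighbouring pair of Isl1. The other Isl1 bin then had 14 ChIP reads, and adjusted p was 0.238 for it, 0.0589 for Neurog3, 0.0572 for Neurod1 and 0.106 for Nkx2-2 (exact binomial test). With the ratio of library totals 2 were called, that of Pax6 and the one from 117100001 for Isl1. No unlisted bin was called in the Insm1 window, where the one with most distinct ChIP reads, 146042001 to 146043000, had 30 ChIP and 17 input reads (adjusted p = 0.658, exact binomial test). The unlisted bins with most distinct ChIP reads were likewise not called in the Neurog3 window, at 61516001 to 61517000 with 42 and 20 reads (adjusted p = 0.107, exact binomial test), and in the Pax6 window, at 105646001 to 105647000 with 34 and 20 (adjusted p = 0.633, exact binomial test).

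Against same-size windows laid end to end over the same chromosome, the Insm1 and Neurog3 windows were rich in sites and the Pax6 and Neurod1 windows were near the middle. Windows with under 50% of the median input depth were left out, which kept 369 to 850 windows a chromosome and size. The Insm1 window had more sites than 97.1% of the 850 windows of chromosome 2, whose median was 1 site, and Neurog3 more than 93.5% of 628 on chromosome 10. The Nkx2-2 window had more than 83.8%, Isl1 more than 62.6% of 369 on chromosome 13, Neurod1 more than 57.2% and Pax6 more than 50.1% of 678. Windows with no listed site made up 28.2 to 37.2% of each set. These shares describe ranks and are not tests.

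**Figure D4:**
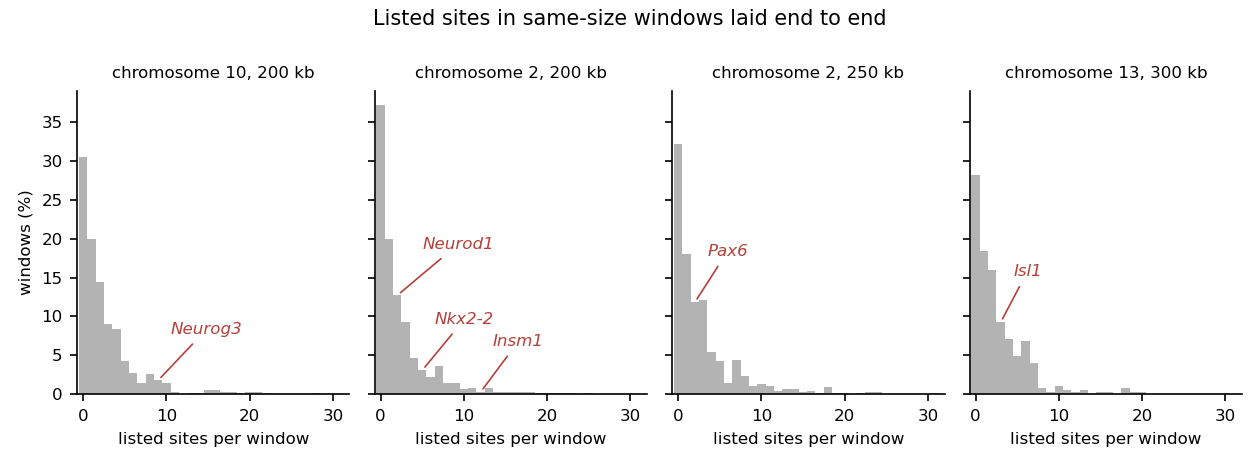
Share of same-size windows in percent by number of listed sites, for each chromosome and window length, with lines to the counts of the 6 loci. Windows with no site are the most common class in each panel, and the Insm1 (12 sites) and Neurog3 (9 sites) windows lie in the thin upper tail.

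Ranked instead by their highest site, the windows stood in another order. The highest site exceeded that of 92.5% of same-size windows for Pax6, 91.9% for Insm1, 89.3% for Nkx2-2, 83.7% for Isl1, 82.8% for Neurog3 and 59.5% for Neurod1. With all listed sites counted, Pax6 therefore ranked lowest by the share of windows with fewer sites and highest by its top site. Neurod1, which also held 2 sites but in a shorter window, ranked low by both.

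Over whole windows the ChIP excess was modest, and stretches within 500 bp of a listed site made up 2.00 to 11.8 kb of each. The Insm1 window held 3309 ChIP and 2318 input reads, a ratio of 1.58 (exact 95% interval 1.50 to 1.66). The ratio was 1.29 for Nkx2-2 (1.21 to 1.37), 1.26 for Isl1 (1.18 to 1.33), 1.24 for Pax6 (1.17 to 1.31), 1.20 for Neurog3 (1.14 to 1.25) and 1.16 for Neurod1 (1.08 to 1.24). Same-size windows had medians of 1.05 to 1.07, so a ratio of 1 is not the usual level, and 95.3% of them lay below the Insm1 window, 85.6% below Nkx2-2, 84.6% below Isl1, 82.2% below Pax6, 82.0% below Neurog3 and 72.0% below Neurod1. These ranks do not depend on the scale. The intervals of Insm1 did not overlap those of the other 5 windows, whose intervals overlapped one another.

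**Figure D5:**
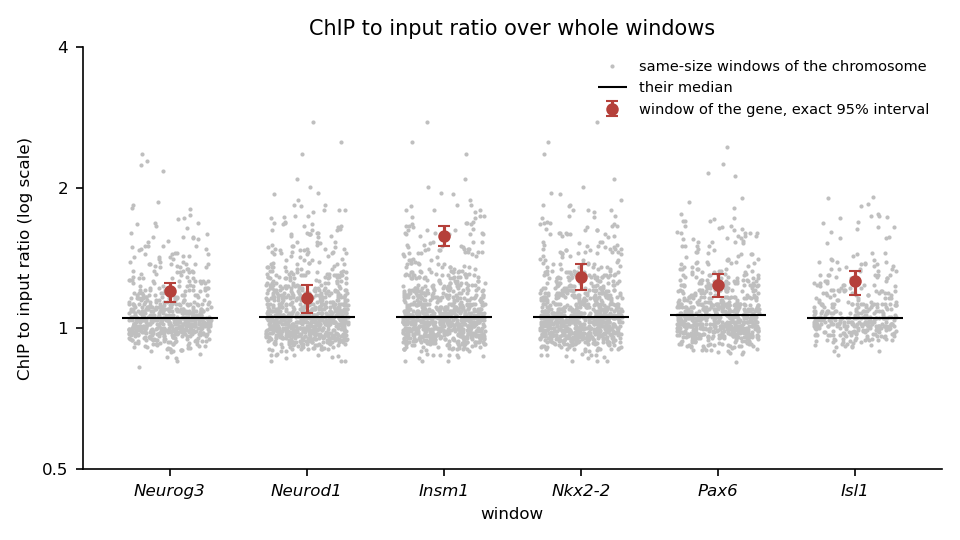
ChIP to input ratio over each whole window (points with exact 95% intervals) beside same-size windows of its chromosome (small points, line at the median), on a log scale. Each of the 6 loci lies above the median of its set, Insm1 farthest at 1.58 and Neurod1 least at 1.16.

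Reads were denser at listed sites in the ChIP library than in the input in each window. Within 500 bp of a listed site lay 35.2% of the ChIP reads of the Insm1 window and 8.71% of its input reads. These shares were 29.5% and 4.38% for Nkx2-2, 26.1% and 5.94% for Neurog3, 18.8% and 0.751% for Pax6, 18.5% and 0.642% for Isl1, and 7.10% and 1.58% for Neurod1. Away from those stretches the ratio was 1.12 for Insm1 (1.05 to 1.19), 1.09 for Neurod1 (1.02 to 1.17), 1.03 for Isl1 (0.967 to 1.10), 1.01 for Pax6 (0.956 to 1.08), 0.948 for Nkx2-2 (0.886 to 1.01) and 0.939 for Neurog3 (0.895 to 0.984). For Neurod1 it stayed close to the 1.16 of the whole window. No such ratio was taken for the same-size windows, so these values have no usual level to be set against. Whole windows of chromosome 10 with no listed site included ratios of 0.867 (3484 input reads) and 1.10 (1720 input reads). Since the list was made from the ChIP reads, the division into reads near and away from sites follows from how sites were chosen.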

How the data were processed

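Both libraries were deposited by the authors as read counts, 1 line of value 1 for every placed read of 37 bp, unnormalized. Coordinates are those of mm9, per the submitters' processing notes. No aligner or read filter is given in the sources used here. The authors' list of sites belongs to the ChIP library and carries 1 signal value (height) per span of 100 bp, per the file headers. How sites were called, and whether input was used, is not stated there. Chromatin was sheared to between 100 and 500 bp and fragments of 100 to 400 bp were gel-isolated, per the labels' protocols.

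Each read's 5′ end was moved 73 bp downstream. Reads were counted in spans and 1 kb bins (bins with at least 1 read), and ChIP was tested against input with an exact two-sided binomial test (smaller tail doubled). Intervals are Clopper-Pearson at 95%. Reads carry no molecular identifiers and need not be independent molecules, so intervals are too narrow. Where no input read was found, a floor of 3 was used. The tests were checked on simulated counts drawn from the model they assume, so that check does not cover repeated reads. All sites of windows with 5 or fewer, and the 3 highest of others, were given in full, with the unlisted bin of most distinct reads. Other named sites and bins were chosen after their values were seen. Windows and lists were chosen with earlier results of these data known. Alternatives covered repeated reads, read position, scale, span, height and window sets. No genome of the build was used, so no sequences are shown. Python 3.11.15, NumPy 2.4.6, pandas 2.3.3 and SciPy 1.17.1 were used.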

Additional observations from a re-analysis of the deposited data

How the results depend on the processing

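Shares of same-size windows with fewer listed sites moved with the sites counted and the measure used. At heights of 30 or more they were 93.6% for Insm1, 90.3% for Neurog3, 86.8% for Nkx2-2, 60.7% for Isl1, 47.6% for Neurod1 and 41.4% for Pax6. At 50 or more they were 93.9% for Neurog3, 90.9% for Insm1, 82.2% for Nkx2-2, 76.4% for Isl1, 55.3% for Pax6 and 0% for Neurod1. Neurog3 then ranked above Insm1. Neurod1, with no site of that height, tied with every window that held none, so its share could only be 0%. For Pax6, with 1 such site, 55.3% is the share of windows that held none. Site counts at 30 or more were 6 for Insm1, 5 for Neurog3, 1 for Neurod1 and 1 for Pax6, and at 50 or more 3 for Insm1, 4 for Neurog3, 2 for Nkx2-2, 1 for Pax6 and 0 for Neurod1. Per 1000 input reads the shares were 99.3% for Insm1, 90.5% for Nkx2-2, 90.3% for Neurog3, 75.3% for Isl1, 66.9% for Neurod1 and 58.0% for Pax6. Against all autosomes they were 80.5% for Nkx2-2, 53.3% for Isl1 and 53.1% for Neurod1. With windows widened by 50 kb on each side, chosen after seeing the data, the Insm1 count was 21 and the shares 98.2% for Insm1, 86.9% for Neurog3, 79.4% for Nkx2-2 and 50.9% for Isl1. With overlapping windows every 50 kb no share left its Wilson interval.

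With the ratio of library totals as the scale (1.02 ChIP reads per input read), whole-window ratios were 1.40 for Insm1, 1.14 for Nkx2-2, 1.11 for Isl1, 1.10 for Pax6, 1.06 for Neurog3 and 1.03 for Neurod1, whose interval (0.963 to 1.10) then held 1, and called bins were 2 for Neurod1 and 3 for Isl1. With the ratio of reads outside the deposited spans (0.971), also chosen after seeing the data, the ratios were 1.47, 1.20, 1.17, 1.16, 1.11 and 1.08 in the same order. With 1 read per position and strand the Pax6 ratio was 1.17. Called bins otherwise stayed within 1.5 times their number. The number of listed sites called was 27 with 5′ ends not moved, 33 within 100 bp and 32 under the other settings; of the sites given in full, the call lost was that at 79219534 for Neurod1. Of the 7 called bins away from listed sites, 5 were called with 5′ ends not moved, 3 with 1 read per position and strand, 5 with the scale outside the spans, 2 with library totals and 7 with at least 10 reads. No paired analysis was possible because each group is 1 library. The 0 to 16 input reads within 100 bp of a site leave wide ratio intervals.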

Other observations

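At 2 of the 33 sites the authors' height fell far below the reads counted there. Over the whole list the height was a median 90.2% of the number of distinct ChIP reads within 100 bp, and between 73.2% and 97.1% for the middle 80% of sites. At 61679538 in the Neurog3 window the height of 39 was 35.1% of 111 distinct reads, a share below that of all but 0.681% of the list. At 117112963 in the Isl1 window the height of 21 was 37.5% of 56 distinct reads, a share below that of all but 0.870% of the list. There the plus-strand starts had their median 115 bp before the listed position and the minus-strand starts 48 bp after it, so the read pile was centred before that position. The Neurog3 site had more distinct reads than its neighbour at 61680074, which had 74 and a height of 68. The cause was not tested, and both sites were chosen after their values were seen.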
